A study of Mus musculus with 6 samples.

Results

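Lrrn3, Avpr1a, Srgap1 and Alcam are 4 genes of the tumor transcriptome whose levels are described here. They were picked by name from the 54532 genes of the deposited table, as 4 genes whose scaled counts were lower in every Tmem173iΔmye than in every Tmem173fl/fl tumor. The difference between the groups is therefore what chose them, and its size is given below as a description without a test. RNA-seq was carried out on colon tumors of AOM+DSS-L mice, 3 of them Tmem173fl/fl and 3 Tmem173iΔmye. Tmem173 encodes STING, the adaptor through which cytosolic DNA turns on interferon genes. Both groups carried the floxed Tmem173 allele, received the carcinogen azoxymethane (AOM) followed by cycles of dextran sodium sulfate (DSS) in the drinking water, and were injected with tamoxifen once tumors had formed. They differed by the Lyz2-Creert2 allele (written Lzym-Creert2 in the series' design text), a tamoxifen-inducible Cre under control of the lysozyme gene, which was present in the Tmem173iΔmye mice (CRE in the sample labels) and absent from the Tmem173fl/fl mice (WT in the labels). This driver is active in macrophages, monocytes and neutrophils, and whole tumor RNA holds these cells beside epithelium and stroma. The sources used here give ages for other arms of the AOM/DSS work but tie none to these groups.

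All 4 genes encode proteins of the cell surface or of the signalling just beneath it. Lrrn3 is a single-pass membrane protein of the neuronal leucine-rich repeat family, known from developing neurons and from naive T cells. Avpr1a is the V1a vasopressin receptor, which couples to Gq, phospholipase C and calcium release and is best known for constricting vascular smooth muscle. Srgap1 is an intracellular protein that binds the Robo receptors, through which the secreted Slit ligands guide migrating cells and axons. Alcam (CD166) is an immunoglobulin-superfamily adhesion molecule that binds itself and the T cell receptor CD6, and it is found on intestinal stem cells, other epithelial cells and activated leukocytes.

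Lrrn3 (ENSMUSG00000036295) is on chromosome 12 of GRCm38, minus strand, from 41451668 to 41486431, and has 1 annotated transcript of 2 exons. Avpr1a (ENSMUSG00000020123) lies on the plus strand of chromosome 10, from 122448499 to 122453452, also with 1 transcript of 2 exons. Srgap1 (ENSMUSG00000020121) lies on the minus strand of the same chromosome, from 121780991 to 122047315, with 5 transcripts of which 3 are protein-coding and 22 exons in the longest of these. Alcam (ENSMUSG00000022636) lies on the minus strand of chromosome 16, from 52248996 to 52454074, with 7 transcripts, 5 of them protein-coding, and 16 exons in the longest. The exonic lengths used for the deposited FPKM values are 3865 bases for Lrrn3, 2670 for Avpr1a, 9132 for Srgap1 and 7121 for Alcam. The counts cover all exons of a gene, so they do not tell transcripts apart. The ends of Srgap1 and Avpr1a that face each other are 401 kb apart, and 1 other gene that was tested lies between them.

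The 250 bases before the start of Srgap1 and of Avpr1a are shown because these neighbours were both lower in Tmem173iΔmye tumors. The sequences are from RefSeq on GRCm38.p6 and are written 5′ to 3′ on the strand of the gene, at chr10:122047316-122047565 (minus strand) for Srgap1 and chr10:122448249-122448498 (plus strand) for Avpr1a. Capitals mark, on either strand, the letters of a TATA box, which were searched as TATAAA. They also mark a CCAAT box. They mark a GC box as well, searched as GGGCGG.
Srgap1 promoter: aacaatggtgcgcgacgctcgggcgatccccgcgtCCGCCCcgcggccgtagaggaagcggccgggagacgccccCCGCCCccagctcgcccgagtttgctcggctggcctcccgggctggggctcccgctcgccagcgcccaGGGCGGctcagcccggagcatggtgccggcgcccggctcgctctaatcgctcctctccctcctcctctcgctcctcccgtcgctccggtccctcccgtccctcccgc
Avpr1a promoter: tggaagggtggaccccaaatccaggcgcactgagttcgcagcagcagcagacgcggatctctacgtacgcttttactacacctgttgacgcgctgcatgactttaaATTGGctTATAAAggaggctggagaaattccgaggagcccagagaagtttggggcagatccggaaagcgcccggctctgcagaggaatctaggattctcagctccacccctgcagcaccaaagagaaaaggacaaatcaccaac
The Srgap1 window is rich in G and C, at 76.4%, with 35 CpG dinucleotides and 3 GC boxes, which begin at positions -215, -175 and -107 from the start. The Avpr1a window has a GC content of 53.6% and 12 CpG, with a CCAAT match at -144 and a TATAAA match at -137 that do not overlap. Across 32851 RefSeq windows of this length, the medians were 52.4% GC and 6 CpG. TATAAA was found in 12.4% of those windows, CCAAT in 33.9% and GGGCGG in 32.7%. The Alcam window is not printed because its RefSeq start is 993 bases from the annotated start given above, so that the window lies inside the span of the gene. It has a GC content of 69.2%, 22 CpG, GC boxes at -159 and -10 and CCAAT at -201. Letters for 5 other motifs were searched on both strands in these windows, namely CRE (TGACGTCA, in 1.55% of all windows), GAS (TTCNNNGAA, 7.02%), the interferon-stimulated element ISRE (2.98%), AP-1 (TGANTCA, 6.75%) and TCF/LEF (CTTTGAT, 3.21%). None of the 3 windows held any of these 5 strings.

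Each tumor gave between 15329810 and 16533732 counts on genes, so the libraries were of similar depth. A filter at a mean FPKM of 0.5 over the 6 tumors left 16426 genes, which were tested with edgeR's quasi-likelihood test. Lower values in every Tmem173iΔmye tumor were seen for 1063 of the tested genes (6.47%), and the opposite for 991 (6.03%). The threshold used in the study's methods was read here as a log2 fold change of 1 or more in size with an unadjusted p under 0.05. It was passed by 349 genes (2.12%), of which 142 (0.864% of all tested) were lower and 207 (1.26%) higher in Tmem173iΔmye tumors. These counts depended on single tumors. Without Tmem173fl/fl replicate 1 they were 199 lower and 437 higher, without its replicate 2 they were 185 and 129, without its replicate 3 they were 92 and 126, and without Tmem173iΔmye replicate 1 they were 132 and 128. No gene had an adjusted p under 0.05 (0%) in edgeR with Benjamini-Hochberg adjustment, while 1008 genes (6.14%) had an unadjusted p under 0.05 and DESeq2 gave 28 genes (0.17%) with an adjusted p under 0.05. Y-linked genes had 3547 counts in Tmem173fl/fl replicate 1 and 2875 and 2655 counts in Tmem173iΔmye replicates 1 and 2, against at most 2 in the other tumors, so males were 1 of 3 and 2 of 3. For Tmem173 itself the log2 fold change was 0.0015 (SE 0.24), and for Lyz2, the lysozyme gene, it was -0.064 (SE 0.37), and both overlapped between the groups. The value for Tmem173 rests on Tmem173fl/fl replicate 2, the tumor with the highest level, and was 0.34 (SE 0.12) without it.

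Lrrn3 had the largest difference of the 4 genes. Its counts were 45, 59 and 113 for Tmem173fl/fl tumors, listed here and below from replicate 1 to replicate 3, and 6, 9 and 8 for Tmem173iΔmye tumors. As CPM, that is, counts scaled to the TMM-adjusted library size, these were 2.93, 3.93 and 6.78 against 0.379, 0.567 and 0.509. The Tmem173fl/fl tumors were all well above the Tmem173iΔmye tumors, and their lowest value was 5.16 times the highest of the other group. Of the 1063 genes that were lower without overlap, 6 had a wider gap. This rank uses the values by which Lrrn3 was chosen and is a description only. The means were 4.55 ± 2.0 CPM (SD, n = 3) and 0.485 ± 0.0964 CPM (SD, n = 3), a log2 fold change of -3.21 (SE 0.45) for Tmem173iΔmye over Tmem173fl/fl, which leaves 10.7% of the mean level. Among the Tmem173fl/fl tumors Lrrn3 spread more than the other 3 genes, since replicate 3 was 2.32 times replicate 1. The Tmem173iΔmye values rest on 23 counts in all, and at this number counting error alone is a large part of the spread. With a mean FPKM of 0.647, Lrrn3 passed the filter on low values only through the Tmem173fl/fl tumors.

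Avpr1a had 87, 65 and 81 counts in Tmem173fl/fl and 24, 22 and 13 in Tmem173iΔmye tumors. In CPM these were 5.66, 4.33 and 4.86 against 1.52, 1.39 and 0.828. The Tmem173fl/fl tumors lay close together, the groups did not overlap, and the gap between the nearest tumors was 2.86-fold. A wider gap was found for 12 of the 1063 genes, again a description of the values that chose Avpr1a. The means were 4.95 ± 0.666 CPM (SD, n = 3) and 1.24 ± 0.366 CPM (SD, n = 3), and the log2 fold change was -1.99 (SE 0.34), or 25.1% of the Tmem173fl/fl level. Replicate 3 was the lowest of the Tmem173iΔmye tumors for this receptor. The mean FPKM over the 6 tumors was 1.15. In the Tmem173iΔmye tumors alone it was 0.463, so Avpr1a, like Lrrn3, passed the filter on low values only through the Tmem173fl/fl tumors.

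Srgap1 was far more abundant, with 1099, 1361 and 1595 counts in Tmem173fl/fl and 664, 807 and 723 in Tmem173iΔmye tumors. The CPM values were 71.5, 90.7 and 95.7 against 41.9, 50.8 and 46.0. Here the lowest Tmem173fl/fl tumor, replicate 1, was 1.41 times the highest Tmem173iΔmye tumor, replicate 2. The means were 86.0 ± 12.8 CPM (SD, n = 3) and 46.3 ± 4.47 CPM (SD, n = 3), a log2 fold change of -0.89 (SE 0.15) with 53.8% of the Tmem173fl/fl level left.

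Alcam had the highest level and the smallest difference. It had 1829, 1953 and 1970 counts in Tmem173fl/fl and 1333, 1355 and 1172 in Tmem173iΔmye tumors, or 119, 130.2 and 118 CPM against 84.2, 85.4 and 74.6 CPM. Within each group the tumors were within 1.14-fold of one another, and the groups were set apart by a gap of 1.38-fold, the narrowest of the 4 genes. The means were 122 ± 6.72 CPM (SD, n = 3) and 81.4 ± 5.90 CPM (SD, n = 3), with a log2 fold change of -0.59 (SE 0.12), or 66.5% of the Tmem173fl/fl level. The log2 fold changes of Lrrn3 and Avpr1a were thus more than 1 in size, and those of Srgap1 and Alcam less. All 4 genes were lower in every Tmem173iΔmye tumor also by the deposited FPKM values and by CPM without TMM scaling. In bulk tumor RNA, fewer cells that express a gene and less RNA per cell cannot be told apart.

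**Figure D1:**
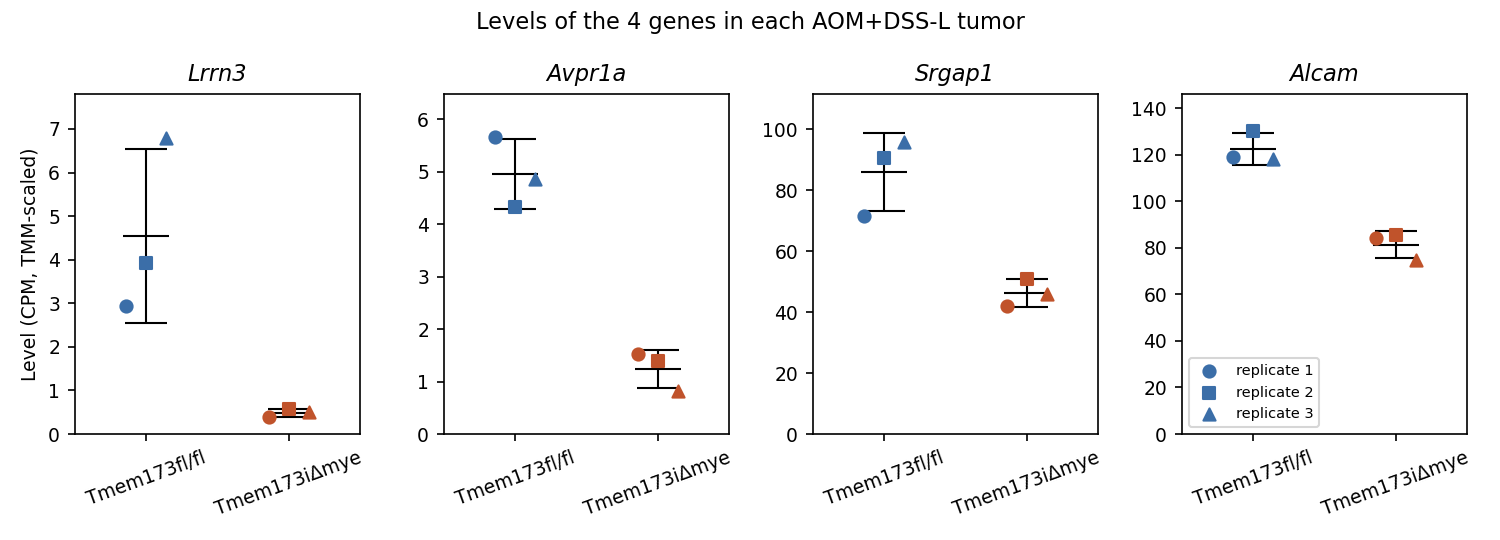
Level of Lrrn3, Avpr1a, Srgap1 and Alcam in CPM (TMM-scaled, linear axes from 0) in each AOM+DSS-L tumor, with points for replicates 1 to 3 of the Tmem173fl/fl (blue) and Tmem173iΔmye (orange) groups and black lines for the mean ± SD (n = 3). For each gene, the 3 Tmem173iΔmye points lie below all 3 Tmem173fl/fl points, from 0.379 to 0.567 against 2.93 to 6.78 CPM for Lrrn3 down to 74.6 to 85.4 against 118 to 130.2 CPM for Alcam.

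The order of the 4 genes by level per length was the same in both groups. In FPKM, Alcam had 17.1 ± 1.07 (SD, n = 3) in Tmem173fl/fl and 11.4 ± 0.822 (SD, n = 3) in Tmem173iΔmye tumors. Srgap1 followed with 9.36 ± 1.45 and 5.04 ± 0.473 FPKM, then Avpr1a with 1.84 ± 0.231 and 0.463 ± 0.136 FPKM, and Lrrn3 was last with 1.17 ± 0.516 and 0.125 ± 0.0245 FPKM (SD, n = 3 each). Neighbours in this order did not overlap, except that in the Tmem173fl/fl tumors the highest Lrrn3 value, 1.74 FPKM, exceeded the lowest Avpr1a value, 1.63 FPKM. By its mean FPKM over all tumors, Lrrn3 stood at percentile 5.01 of the genes tested, Avpr1a at percentile 16.1, Srgap1 at 56.3 and Alcam at 74.1. The size of the difference thus ran opposite to the level, with the largest fold change in the least abundant gene. The 4 genes were chosen for groups that did not overlap, which genes with few counts seldom show at a small difference. This order may therefore follow from the choice.

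The tumors were not ranked alike by the 4 genes. Lrrn3 and Srgap1 ordered the tumors in the same way within both groups, with Tmem173fl/fl replicate 1 lowest and replicate 3 highest and Tmem173iΔmye replicate 1 lowest and replicate 2 highest. Avpr1a was highest in replicate 1 of both groups. Alcam was highest in replicate 2 of both groups and lowest in replicate 3 of both. With 3 tumors per group, these orders are a description.

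The groups differed in their number of males, so each gene was also compared among tumors with and without Y-linked counts. Among the former (1 Tmem173fl/fl and 2 Tmem173iΔmye tumors), the log2 ratio of the mean CPM was -2.63 for Lrrn3, -1.96 for Avpr1a, -0.62 for Srgap1 and -0.49 for Alcam. Among the latter (2 Tmem173fl/fl tumors and 1 Tmem173iΔmye tumor), it was -3.40 for Lrrn3, -2.47 for Avpr1a, -1.02 for Srgap1 and -0.74 for Alcam. All 4 genes were lower in Tmem173iΔmye tumors in both sets, a direction fixed in advance by the way they were chosen. The difference of each gene was somewhat smaller among the males. Such small sets allow no test.

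For 3 of the 4 genes, another annotated gene overlaps the span. Lrrn3 sits inside the span of Immp2l, a gene of a mitochondrial inner membrane peptidase on the opposite strand, and shares no exonic base with it. Immp2l had 30, 8 and 24 counts in Tmem173fl/fl and 50, 44 and 37 counts in Tmem173iΔmye tumors, that is, it was higher in every Tmem173iΔmye tumor where Lrrn3 was lower. Its log2 fold change was 1.07 (SE 0.48, adjusted p = 0.742 in edgeR). Within Srgap1 and on its strand, from 121829018 to 121832058, lies Gm48804, an entry of class TEC (to be experimentally tested) that shares 131 exonic bases with Srgap1. Gm48804 had 34, 40 and 57 counts against 11, 10 and 15 counts, without overlap, and its log2 fold change was -1.85 (SE 0.37, edgeR adjusted p = 0.742). Reads of Srgap1 introns and of Gm48804 cannot be told apart in gene counts, and Gm48804 had at most 57 counts where Srgap1 had at least 664. Gm48877, antisense to Avpr1a, had 1 count in 1 tumor and 0 in the other 5.

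Lrrn3 was set beside its paralogs, the other LRRN genes. Lrrn2 had 26, 51 and 51 counts in Tmem173fl/fl and 44, 59 and 73 counts in Tmem173iΔmye tumors. The groups overlapped, and the log2 fold change was 0.45 (SE 0.37, edgeR adjusted p = 0.773). Lrrn1 had 1, 4 and 5 against 5, 11 and 12 counts, and Lrrn4 had at most 3 counts in any tumor, so both were under the filter. In FPKM, Lrrn3 in the Tmem173fl/fl tumors (1.17 ± 0.516) was near Lrrn2 (0.752 ± 0.256), whereas in Tmem173iΔmye tumors Lrrn3 (0.125 ± 0.0245) was below Lrrn2 (1.03 ± 0.257) in every tumor. The list held 39 other neuronal leucine-rich repeat genes (LINGO, FLRT, LRRTM, SLITRK, AMIGO, LRFN, LRIG and related families). Of these, 14 were tested, and none was past the study's threshold (2.12% of all genes tested were). Their median log2 fold change was -0.12 against -0.0042 over all genes tested, with 9 below 0 and 5 above. Of these 14 genes 3, or 21.4%, were lower in every Tmem173iΔmye tumor, where 6.47% of all genes were. They were Lrrc4, a postsynaptic adhesion molecule, with 154, 206 and 151 against 75, 86 and 113 counts and a log2 fold change of -0.92 (SE 0.27), Elfn2 with -0.53 (SE 0.24) and Lrig2 with -0.30 (SE 0.13). The median had the opposite sign, 0.13, without Tmem173fl/fl replicate 2.

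For Avpr1a, the other receptors for vasopressin and oxytocin had few counts. Avpr1b had 3, 15 and 13 counts in Tmem173fl/fl and 0, 1 and 18 counts in Tmem173iΔmye tumors. Avpr2, the renal water-retention receptor, had 9, 0 and 4 against 2, 3 and 4 counts, and Oxtr, the oxytocin receptor, had 0, 1 and 5 against 8, 0 and 0 counts. No tumor had more than 18 counts of any of these receptors, but in Tmem173iΔmye replicate 3 the 18 counts of Avpr1b exceeded the 13 of Avpr1a. Of the ligands, Avp was listed at 0 in all 6 tumors and Oxt had at most 2 counts, which limits their RNA to about the level of 3 counts per tumor and says nothing of hormone that arrives in the blood. Of 27 other genes of vasopressin receptor and Gq signalling, 22 were tested. None of the 22 was past the study's threshold (2.12% of all genes tested were). Their median log2 fold change was -0.071, with 12 below 0 and 10 above. Itpr2, an inositol trisphosphate receptor of the calcium store, had 455, 651 and 585 against 252, 469 and 315 counts and a log2 fold change of -0.72 (SE 0.26). Its groups overlapped in counts and in the deposited FPKM. In CPM they were barely apart, at 29.58 in Tmem173fl/fl replicate 1 against 29.55 in Tmem173iΔmye replicate 2. By CPM, Itpr2 was the one gene of the 22 (4.55%) that was lower in every Tmem173iΔmye tumor. Lnpep, the aminopeptidase that cleaves vasopressin and oxytocin, and Itpr3 each had a log2 fold change of -0.27 (SE 0.15).

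Srgap1 was the most abundant of the srGAP genes in every tumor. Srgap2 had 4.02 ± 1.12 FPKM (SD, n = 3) in Tmem173fl/fl and 3.63 ± 0.162 FPKM (SD, n = 3) in Tmem173iΔmye tumors, and its log2 fold change was -0.15 (SE 0.20, edgeR adjusted p = 0.865). Srgap3 was under the filter, at 0.418 and 0.324 FPKM. Because Srgap2 did not separate the groups, the make-up of the family differed between them. Srgap1 made up 70.7%, 65.2% and 68.4% of the summed FPKM of the srGAP genes in the Tmem173fl/fl tumors and 53.9%, 57.1% and 56.9% in the Tmem173iΔmye tumors, again without overlap, and this follows from the values that chose Srgap1. The summed level was 13.8 ± 2.52 FPKM (SD, n = 3) against 8.99 ± 0.612 FPKM (SD, n = 3).

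**Figure D2:**
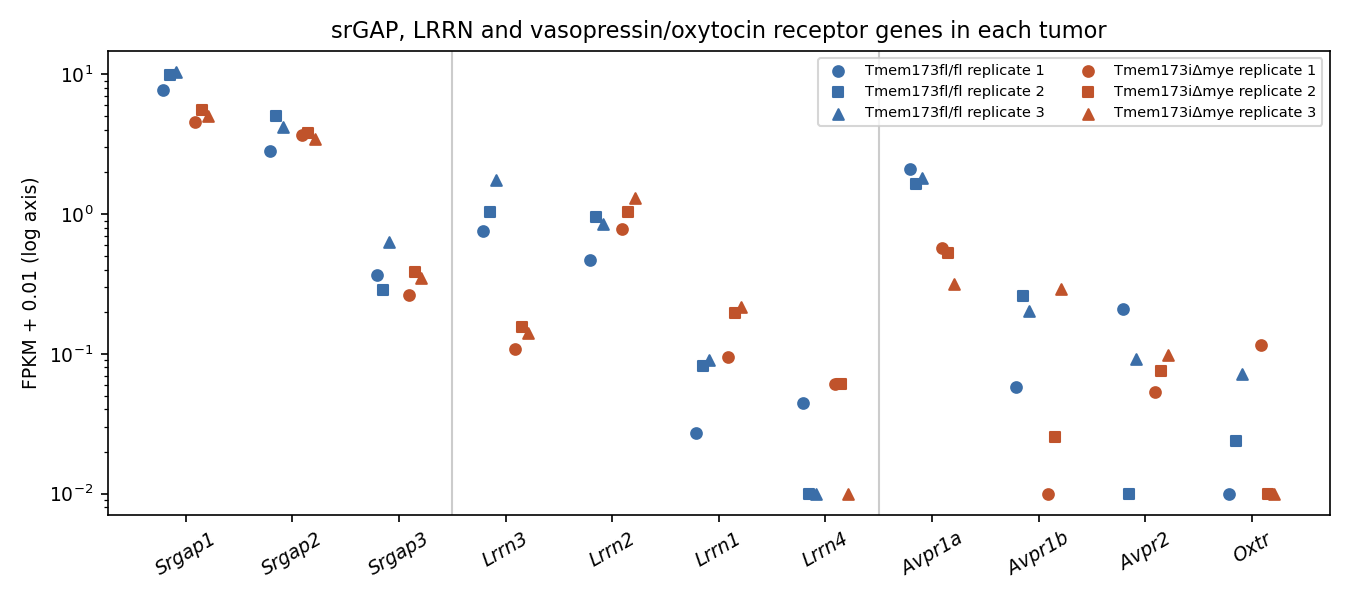
FPKM + 0.01 on a log axis of the srGAP, LRRN and vasopressin/oxytocin receptor genes in each AOM+DSS-L tumor, with points for replicates 1 to 3 of the Tmem173fl/fl (blue) and Tmem173iΔmye (orange) groups. Srgap1, Lrrn3 and Avpr1a show blue points above all orange points, while Srgap2, Srgap3 and Lrrn2 show mixed points, Srgap2 at 2.83 to 5.04 FPKM (blue) and 3.46 to 3.78 FPKM (orange).

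Upstream of Srgap1, the Robo receptors and Slit ligands did not separate the groups. Robo1 had 963, 1667 and 1687 counts in Tmem173fl/fl and 474, 1463 and 828 counts in Tmem173iΔmye tumors. Its log2 fold change was -0.65 (SE 0.39, edgeR adjusted p = 0.748), and Tmem173iΔmye replicate 2 lay among the Tmem173fl/fl tumors. The value was -1.15 without that tumor and past the study's threshold. For Robo2 the log2 fold change was -0.053 (SE 0.31), for the endothelial Robo4 it was 0.26 (SE 0.24), and Robo3 had at most 4 counts in any tumor. Slit3 had 42, 48 and 54 against 149, 45 and 47 counts, with a log2 fold change of 0.73 (SE 0.49) that was -0.072 without Tmem173iΔmye replicate 1. Slit2 was under the filter with 191, 162 and 206 against 133, 316 and 150 counts, as was Slit1 with at most 12 counts. Of 24 other Slit-Robo and srGAP genes, 19 were tested. None of the 19 was past the study's threshold (2.12% of all genes tested were). Their median log2 fold change was -0.10, with 14 below 0 and 5 above. The lowest p-values in the list were those of Enah, an actin regulator, at -0.33 (SE 0.19), of Robo1, and of Sos1, a Ras exchange factor, at -0.27 (SE 0.16).

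For Alcam, the partner CD6 had 34, 19 and 21 counts in Tmem173fl/fl and 36, 31 and 31 counts in Tmem173iΔmye tumors. Its log2 fold change was 0.39 (SE 0.37, adjusted p = 0.801 in edgeR), and the groups overlapped. L1cam, another adhesion molecule that binds Alcam, had 910, 760 and 705 against 896, 690 and 924 counts, and its log2 fold change was 0.063 (SE 0.18, edgeR adjusted p = 0.939). Of 32 other partners and adhesion molecules, 26 were tested. None of the 26 was past the study's threshold (2.12% of all genes tested were). Their median was 0.025, with 10 below 0 and 16 above. Mcam (CD146), an adhesion molecule of endothelium and pericytes, had 352, 306 and 357 against 675, 371 and 441 counts, was higher in every Tmem173iΔmye tumor and had a log2 fold change of 0.54 (SE 0.23). None of the 26 was lower in every Tmem173iΔmye tumor. For Nectin4 the log2 fold change was -0.26 (SE 0.14), and for Cd5, a T cell receptor related to CD6, it was 1.08 (SE 0.63), with 26, 5 and 13 against 49, 26 and 19 counts. No gene of these 4 lists had an adjusted p under 0.05 in edgeR, while 1 gene each of the leucine-rich repeat, Gq and adhesion lists and 0 of the Slit-Robo list had an unadjusted p under 0.05. In lists this short, none past the study's threshold is near the share of 2.12% over all genes tested.

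**Figure D3:**
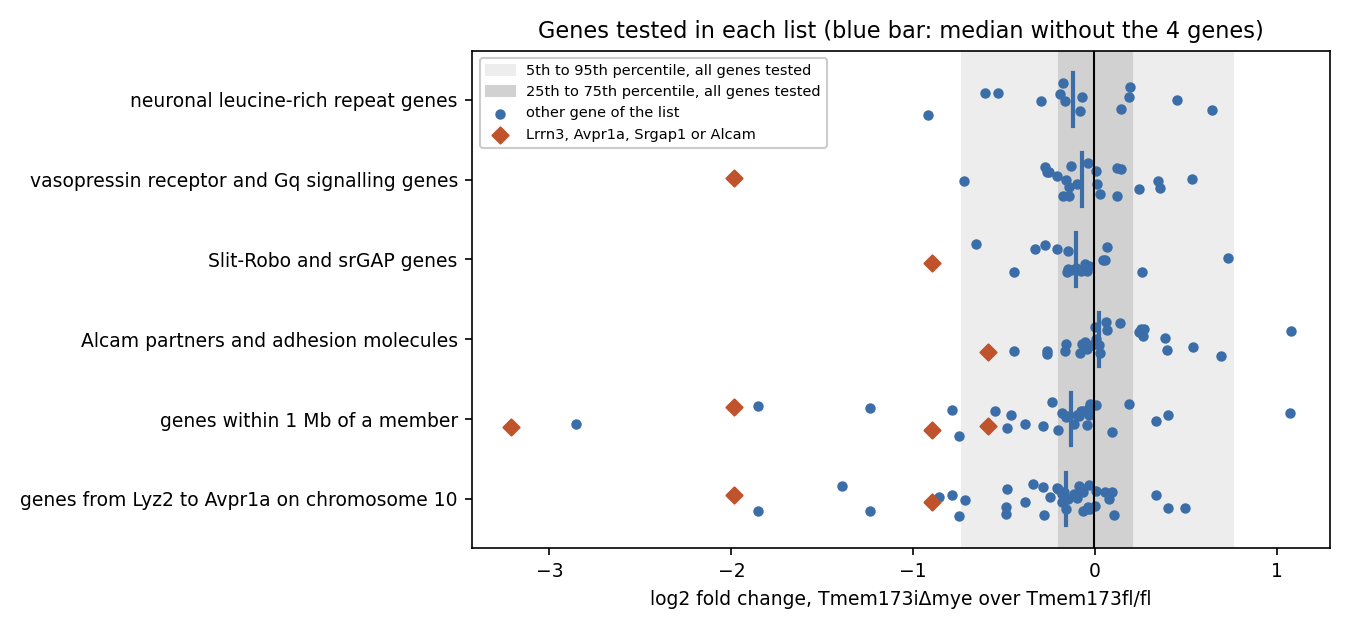
Log2 fold change, Tmem173iΔmye over Tmem173fl/fl, of every tested gene of 6 gene lists, with orange diamonds for Lrrn3, Avpr1a, Srgap1 and Alcam, blue dots for the other genes, a blue bar for the median of those other genes and grey bands for the 25th to 75th and 5th to 95th percentiles of all 16426 genes tested. The medians of the other genes lie between -0.16 and 0.025, inside the inner band of -0.20 to 0.21, and the diamonds lie at -0.59 to -3.21.

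The surroundings of the 4 genes were examined next, since Srgap1 and Avpr1a are neighbours on chromosome 10, the chromosome of Lyz2. Srgap1 lies 4.50 Mb and Avpr1a 5.17 Mb beyond Lyz2. From Lyz2 to Avpr1a, 130 genes besides Srgap1 and Avpr1a are listed and 41 were tested, Lyz2 included. Of these, 33 had a log2 fold change below 0 and 8 above, that is, 80.5% below 0 against 50.6% of all genes tested. Their median was -0.16. Among the protein-coding genes of the interval, 20 of 26 were below 0. Most of these differences were small, and 3 of the 41 genes had an unadjusted p under 0.05 (6.14% of all genes tested did), none with an adjusted p under 0.05 in edgeR. Genes of one interval are not independent of one another, and with Y-linked reads as a covariate the median was -0.079.

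Past the study's threshold in the interval were Gm48804, described above, and Hmga2, a chromatin protein of fetal and tumor cells. Of all genes tested, 2.12% were past it. Gm48804, at a mean of 0.904 FPKM in Tmem173fl/fl and 0.249 FPKM in Tmem173iΔmye tumors, passed the filter on low values only through the group in which it was high. Hmga2 had 220, 295 and 540 counts in Tmem173fl/fl and 86, 191 and 123 counts in Tmem173iΔmye tumors, without overlap, and a log2 fold change of -1.39 (SE 0.38). Helb, a DNA helicase, had 423, 377 and 474 against 348, 312 and 351 counts, also without overlap, at -0.34 (SE 0.15). In all, 5 of the 41 genes (12.2%) were lower in every Tmem173iΔmye tumor and 1 was higher, where 6.47% and 6.03% of all genes tested were. Srgap1 and Avpr1a are lower than most genes of the interval by the way they were chosen.

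**Figure D4:**
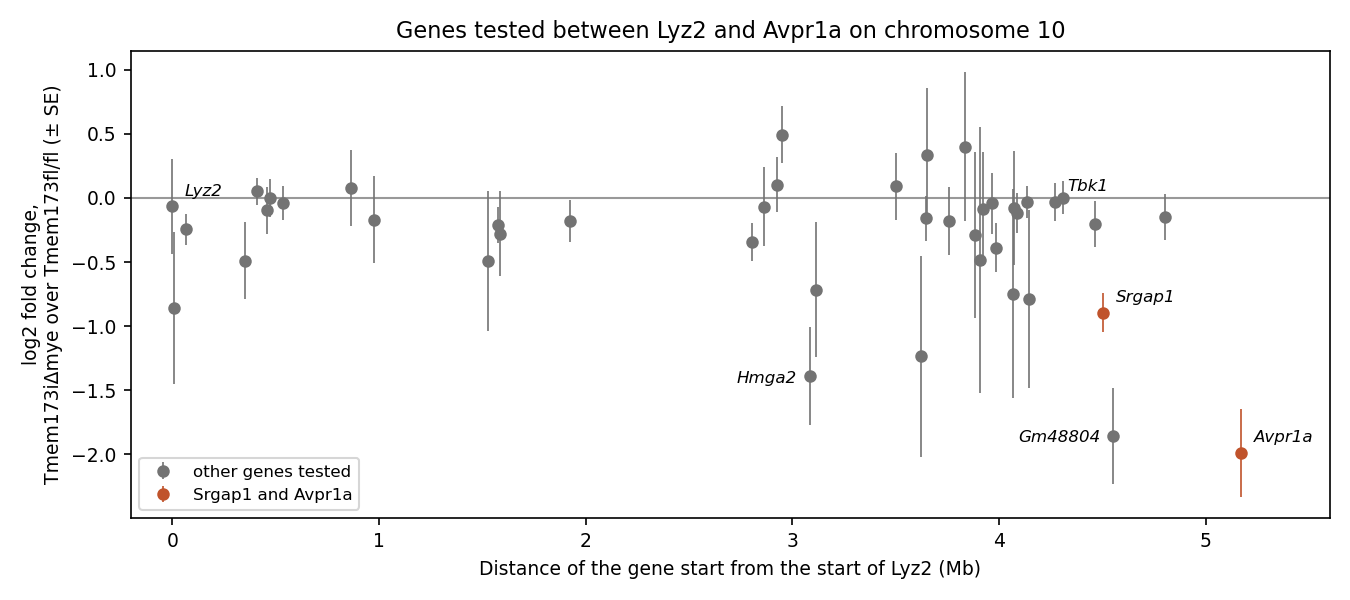
Log2 fold change ± SE, Tmem173iΔmye over Tmem173fl/fl, of each tested gene between Lyz2 and Avpr1a on chromosome 10, against the distance of its start from the start of Lyz2 in Mb, with Srgap1 and Avpr1a in orange and the 41 other genes in grey. Most grey points lie slightly below 0, with a median of -0.16, and the labelled points Srgap1, Hmga2, Gm48804 and Avpr1a are at -0.89, -1.39, -1.85 and -1.99, with Gm4473 (not labelled) at -1.24.

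Within 1 Mb of the 4 genes, 89 other genes are listed and 30 were tested, of which 24 were below 0 and 6 above, with a median of -0.13. Gm48804 was the 1 gene of the 30 past the study's threshold (2.12% of all genes tested were). Of the 30, 2 (6.67%) were lower in every Tmem173iΔmye tumor, close to the 6.47% of all genes. The neighbourhoods of Srgap1 and Avpr1a share genes with each other and with the interval from Lyz2, so their counts are not independent. Around Srgap1, 19 of 24 tested neighbours were below 0, where 50.6% of all genes tested were. Tbc1d30 had 621, 715 and 701 against 394, 557 and 621 counts with a log2 fold change of -0.39 (SE 0.19), and Gm4473, with at most 17 counts, had -1.24 (SE 0.78). Around Avpr1a, 11 of 13 were below 0. The largest value, -2.85 (SE 1.28, adjusted p = 0.742 in edgeR) for Fam19a2, came from 226 counts in Tmem173fl/fl replicate 3, while the other tumors had 4 to 21. It was -0.19 without that tumor. Mon2 had -0.24 (SE 0.16). Lrrn3 has Dock4 at -0.46 (SE 0.26) as its only tested neighbour besides Immp2l, and Alcam has Cblb, a ubiquitin ligase, at -0.032 (SE 0.17). Cblb had 740, 835 and 628 against 808, 675 and 704 counts, so the gene next to Alcam did not separate the groups.

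Markers of the cell types that could carry the 4 genes were summed in each tumor. For all 18 lists of markers, the summed CPM overlapped between the groups. Smooth muscle, a site of Avpr1a, had 7 of 8 markers below 0 with a median log2 fold change of -0.49, and summed 392 to 511 CPM in Tmem173fl/fl and 310 to 477 CPM in Tmem173iΔmye tumors. Its one marker past the study's threshold was Des (desmin), at -1.01, with 1116, 837 and 1228 against 394, 285 and 900 counts. Pericyte markers summed 119 to 135 against 126 to 132 CPM, with a median of 0.11. Enteric neuron markers summed 44.6 to 84.1 against 47.1 to 85.6 CPM with 3 of 8 tested. Most of that sum was Ret, with 525 to 1234 counts, where no other neuron marker exceeded 102. Glial S100b had at most 3 counts in any tumor, and the 1 glial marker tested was Erbb3, with 2757 to 4652 counts. T cell markers, relevant to Lrrn3 and to CD6, summed 120.04 to 137 against 107 to 172 CPM, with 7 of 8 above 0 and a median of 0.60. Most of the T cell sum was Tcf7 and Lef1, with 951 to 1718 and 290 to 629 counts. The other T cell markers had 6 to 116 counts, so the sum says little of them. Epithelial markers, relevant to Alcam, were above 0 for 8 of 8 with a median of 0.13, at 11866 to 13250 against 12693 to 14554 CPM. Stem cell markers were below 0 for 4 of 6 with a median of -0.11, at 1335 to 1520.3 against 1091 to 1387 CPM. Macrophage markers summed 434 to 676 against 393 to 655 CPM with a median of 0.044. Neutrophil markers (median 0.69) and mast cell markers (median 1.65) were above 0 for all 6 genes of each list, and 1 tumor had the highest value of every gene, Tmem173iΔmye replicate 1 for neutrophils and replicate 3 for mast cells. Their sums were 32.9 to 114 against 60.3 to 333 CPM for neutrophils and 28.8 to 239.5 against 51.0 to 934 CPM for mast cells. Enteroendocrine markers were below 0 for all 4 tested (median -0.77). Medians were 0.30 for fibroblasts, 0.25 for endothelial cells and 0.058 for interstitial cells of Cajal. They were 0.011 for goblet cells, 0.0018 for adipocytes and -0.66 for B and plasma cells. The 1 glial marker tested was at -0.37, and the 1 dendritic cell marker tested, Itgax, was at 0.25. What part such shifts have in the levels of the 4 genes was not tested.

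The genes whose pattern over the 6 tumors was most like each of the 4 were found by Pearson's r of log2(CPM + 1). These values share the 6 libraries and largely reflect the difference between the groups by which the 4 genes were chosen, and they carry no test. Lrrn3 was most like Gm43857 (r = 0.996), Baiap2 (0.994) and Esyt2 (0.993). Srgap1 was also most like Baiap2 (0.993), followed by Anxa11 (0.992) and Cdyl (0.990). Avpr1a was most like Ofd1 (0.987), Gm6658 (0.987) and Nkain1 (0.985), and Alcam like Cast (0.994), Gm29237 (0.986) and Ofd1 (0.981). Between the 4 genes, r was highest for Lrrn3 with Srgap1 (0.981) and for Avpr1a with Alcam (0.965) and lowest for the neighbours Avpr1a and Srgap1 (0.886). An r of at least 0.95 was reached by 58 genes with Lrrn3, 30 with Avpr1a, 67 with Srgap1 and 28 with Alcam. Baiap2 had 839, 903 and 1076 against 703, 742 and 717 counts, a log2 fold change of -0.39 (SE 0.12), so a like pattern went with a much smaller difference than that of Lrrn3 or Srgap1.

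The differences of Srgap1 and Alcam hardly depended on how they were computed, and those of Lrrn3 and Avpr1a did so on a scale that damps low values. Over 15 settings, the log2 fold change was between -1.01 and -0.77 for Srgap1 and between -0.63 and -0.53 for Alcam. Leaving out each tumor in turn gave -3.45 to -2.80 for Lrrn3 and -2.16 to -1.77 for Avpr1a. On the log2(FPKM + 1) scale, Lrrn3 had -0.92 and Avpr1a -0.96.

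**Figure D5:**
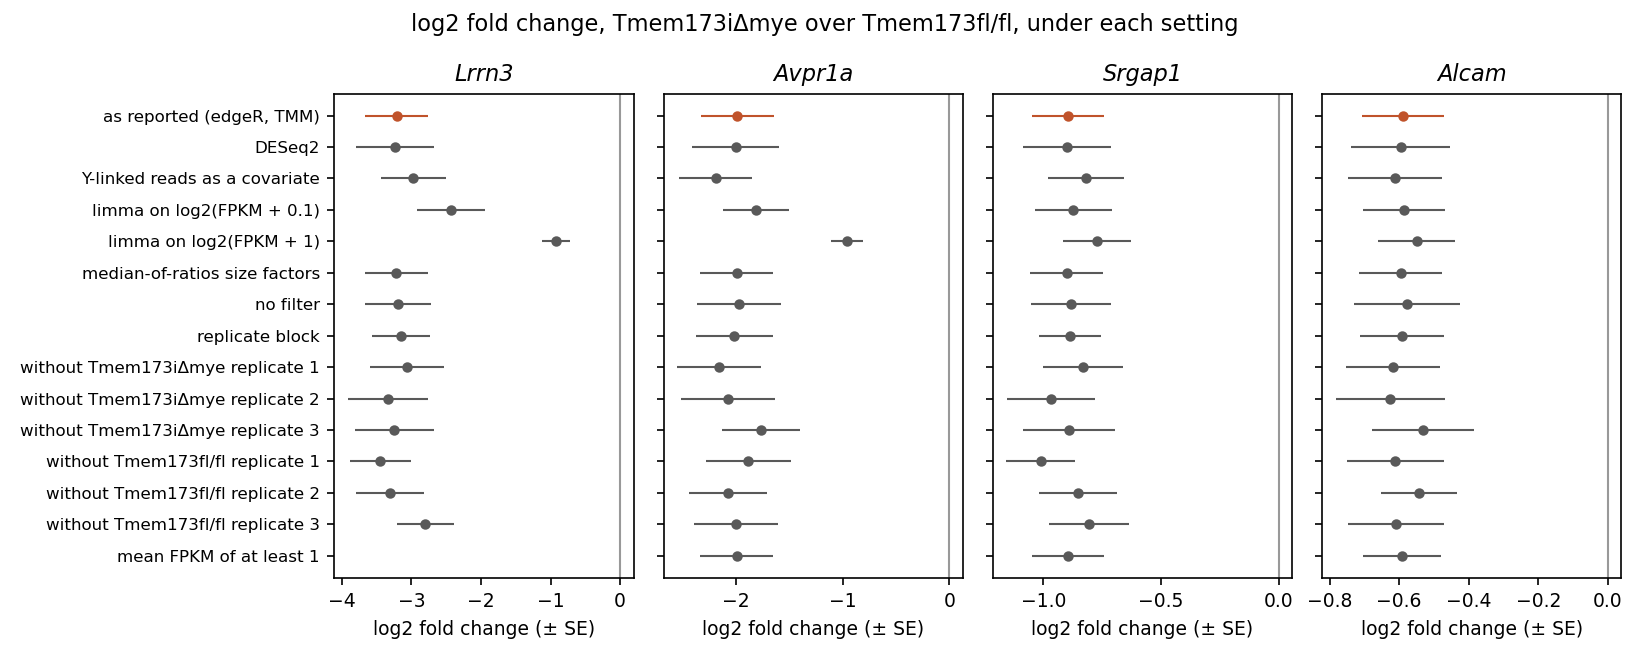
Log2 fold change ± SE, Tmem173iΔmye over Tmem173fl/fl, of Lrrn3, Avpr1a, Srgap1 and Alcam (1 panel each, with its own x axis ending near 0) under each setting, with the value as reported in orange. All values lie below 0, a sign fixed by the way the genes were chosen. Lrrn3 and Avpr1a move toward 0 under limma on log2(FPKM + 1), to -0.92 and -0.96. Lrrn3 has no value at a mean FPKM of at least 1.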

How the data were processed

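Total RNA of tumors from 3 mice per group was sequenced after poly(A) selection. Per the labels, the authors processed reads with CASAVA 1.8, fastp, HISAT2 2.0.5 and featureCounts 1.5.0-p3 on GRCm38/mm10. The strand setting and annotation release are not given in the sources used here. The authors deposited 1 table of raw counts per gene, with FPKM values made from these counts. The table also holds their own DESeq2 1.20.0 comparison. Its group means of scaled counts (a signal), log2 fold changes and p-values, as deposited by the authors, were not used.

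The quasi-likelihood test of edgeR 4.0.16 was run on the counts in R 4.3.3, with TMM scaling and no term but the group, and p-values were adjusted by Benjamini-Hochberg over 16426 genes, those whose mean FPKM reached 0.5. The adjusted p was 0.742 or more for every gene. SE is the absolute log2 fold change over the square root of F. On simulated counts, the script was tested for recovery of known changes. Alternatives were DESeq2 1.42.0, limma 3.58.1 on log2(FPKM + 1) or log2(FPKM + 0.1), median-of-ratios scaling, the absence of a filter, a filter at a mean FPKM of 1, the replicate number as a block, Y-linked reads (over 100 counts) as a covariate and leaving out each tumor. Each mouse is 1 replicate, chosen at random from its group per the study's methods, and p-values measure only the spread between these samples. At totals of 15329810 to 16533732 counts per tumor, a floor of 3 counts was used to mark genes that were nearly absent from every tumor. This floor reflects counting error only. Fold changes are given only for genes that passed the filter on mean FPKM.

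The 4 genes, the lists and the markers were chosen with earlier results of these data known. Besides the 4 genes, the genes named are their paralogs, ligands, receptors and binding partners, genes that overlap them, up to 3 genes of each list, of each 1 Mb neighbourhood and of the interval from Lyz2 with the lowest p, the 3 genes of most like pattern and the checks Tmem173, Lyz2 and Y-linked genes. Des, Dpt and Jchain were named after their values were seen, as the markers past the threshold. Transcripts and exons are from GENCODE M21. A RefSeq promoter window was found for 3 of the 4 genes. Gene counts were not corrected for reads shared with overlapping genes.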

Additional observations from a re-analysis of the deposited data

How the results depend on the processing

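All 4 genes kept a log2 fold change below 0 under every setting that gave a value, a sign fixed in advance by the way they were chosen. Only the size could vary. Lrrn3 was between -3.45 and -0.92 over 14 settings, with -2.43 by limma on log2(FPKM + 0.1) and -0.92 on log2(FPKM + 1), and Avpr1a was -0.96 on the latter scale, as a larger pseudocount damps low values. Lrrn3 had no value at a mean FPKM of at least 1. Without each tumor in turn the ranges were -3.45 to -2.80 for Lrrn3, -2.16 to -1.77 for Avpr1a, -1.01 to -0.81 for Srgap1 and -0.63 to -0.53 for Alcam.

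The count past the study's threshold, 349, was 872 without a filter, where more genes are tested, 211 with Y-linked reads as a covariate and 136 by limma on log2(FPKM + 1). It was 218 to 636 with a tumor left out, 636 without Tmem173fl/fl replicate 1 and 218 without Tmem173fl/fl replicate 3. The cause was not tested. The number with an adjusted p under 0.05 was 0 in edgeR, 28 in DESeq2, 6 without a filter and 1 without Tmem173iΔmye replicate 1. Lower genes past the threshold, 142, numbered 397 without a filter and 83 at a mean FPKM of at least 1.

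The median of the leucine-rich repeat genes, -0.12, turned to 0.13 without Tmem173fl/fl replicate 2 and ranged from -0.21 to 0.13 with each tumor left out, and that of the interval from Lyz2, -0.16, was -0.079 with Y-linked reads as a covariate. The cause was not tested. Hmga2 and Gm48804 were no longer past the threshold by limma on log2(FPKM + 1), at -0.90 and -0.60. Immp2l passed it under 4 settings, at 1.09 without a filter, 1.11 by limma on log2(FPKM + 0.1), 1.18 with the replicate block and 1.47 without Tmem173fl/fl replicate 1. Fam19a2 passed it under 4 settings.

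After subtraction of each group's mean, tumors with the same replicate number correlated at 0.31, 0.0085 and 0.15 across genes. Between tumors of different number and group, the correlations ran from -0.37 to 0.22. The highest value was that of a same-numbered pair, but the ranges overlapped. These few values cannot decide whether equal numbers mark pairs. With the replicate number as a block, the log2 fold change was -3.15 for Lrrn3, -2.01 for Avpr1a, -0.89 for Srgap1 and -0.59 for Alcam, and 377 genes passed the threshold, with 0 at an adjusted p under 0.05. With 3 tumors per group and as few as 6 counts of Lrrn3 in a tumor, differences of low genes carry wide errors.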
